A study of Gallus gallus with 6 samples.

Results

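The messenger RNAs of 9 hypoxia pathway genes were followed in the jejunal mucosa of heat-stressed breeder hens. They are HIF1A, EPAS1, EGLN1, EGLN3, HIF1AN, VHL, NDRG1, VEGFA and ADM, found by their symbol in a table of 16317 genes. A list of 10 symbols was looked up, and EGLN2 was not analysed here. All 9 genes had enough counts to be tested, out of 13060 tested genes. EGLN3 and NDRG1 had been put forward because they were higher after heat in these same libraries, so the differences between heat and control are given below for all 9 genes as a description and support nothing by themselves.

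The animals were SUT breeder hens aged 28 weeks. The heat group was kept at 36 °C for 6 h and the control group at 23 °C without heat stress, with 25 hens in each group. RNA of the mucosa of the jejunum, the small intestine between duodenum and ileum, was taken from 12 hens per group, and 4 hens were mixed in each pool. Each of the 3 heat pools and 3 control pools was sequenced as 1 library, so replicates are pools of hens and a value of 1 pool is an average over its hens.

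Cells sense oxygen through hypoxia-inducible factors (HIF). An alpha subunit, HIF1A or EPAS1, pairs with ARNT and switches on target genes. When oxygen is present, the prolyl hydroxylases EGLN1, EGLN2 and EGLN3 mark the alpha subunit, VHL binds the mark and the protein is degraded, while the asparagine hydroxylase HIF1AN keeps the remaining factor from its coactivators. HIF activity is thus set mainly at the level of protein, which messenger RNA does not show. In human and mouse cells EGLN3, EGLN1, NDRG1, VEGFA and ADM are themselves raised by HIF, and in the mouse gut the lining has a steep fall of oxygen from the crypt base towards the lumen. These roles were worked out in mammals.

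Libraries held between 11513427 and 13805395 estimated counts. Heat pool 2 stood apart on the first principal component of log2 CPM, at -45.69, while the rest of the heat pools were at -8 and -6.50 and the control pools at 16.5 to 27.1. Heat pool 3 was separate on the second component, with -38.84 where the remaining 5 pools had 2.7 to 13.5. Differences that rest on heat pool 2 are given with and without it. Enterocyte markers were abundant in every pool (summed 19590 to 33180 CPM in heat pools and 23130 to 32640 CPM in control pools over 16 genes), and none of the marker genes found was at 0 in all pools. CPM is the count scaled to library size after TMM normalization, and FPKM is the deposited level per length of gene and depth of library. Levels of different genes are compared in FPKM only.

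The messenger RNAs of the HIF alpha subunits did not separate the groups. HIF1A, the alpha subunit that drives the glycolytic targets, was at 14.7, 12.6 and 11.7 FPKM in heat pools 1, 2 and 3 and at 13.8, 16.9 and 13.1 FPKM in control pools 1, 2 and 3. The groups overlapped, control pool 2 was the highest of all pools, and the log2 fold change was -0.12 with SE 0.12. EPAS1, the other alpha subunit, prominent in blood vessel lining and in the iron handling of the mouse gut, was at 50.4, 45.1 and 39.1 FPKM in the heat pools and at 38.2, 61.1 and 44.3 FPKM in the control pools. Control pools 1 and 2 were the lowest and the highest of the 6 pools, so the heat pools lay inside the control range. Its log2 fold change was -0.04 with SE 0.18, and became 0.17 without control pool 2 and 0.02 without heat pool 3. The ratio of EPAS1 to HIF1A in FPKM was 3.46 ± 0.117 in heat pools and 3.25 ± 0.444 in control pools (mean ± SD, n = 3 each), so EPAS1 messenger RNA was the more abundant per length in both groups.

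**Figure D1:**
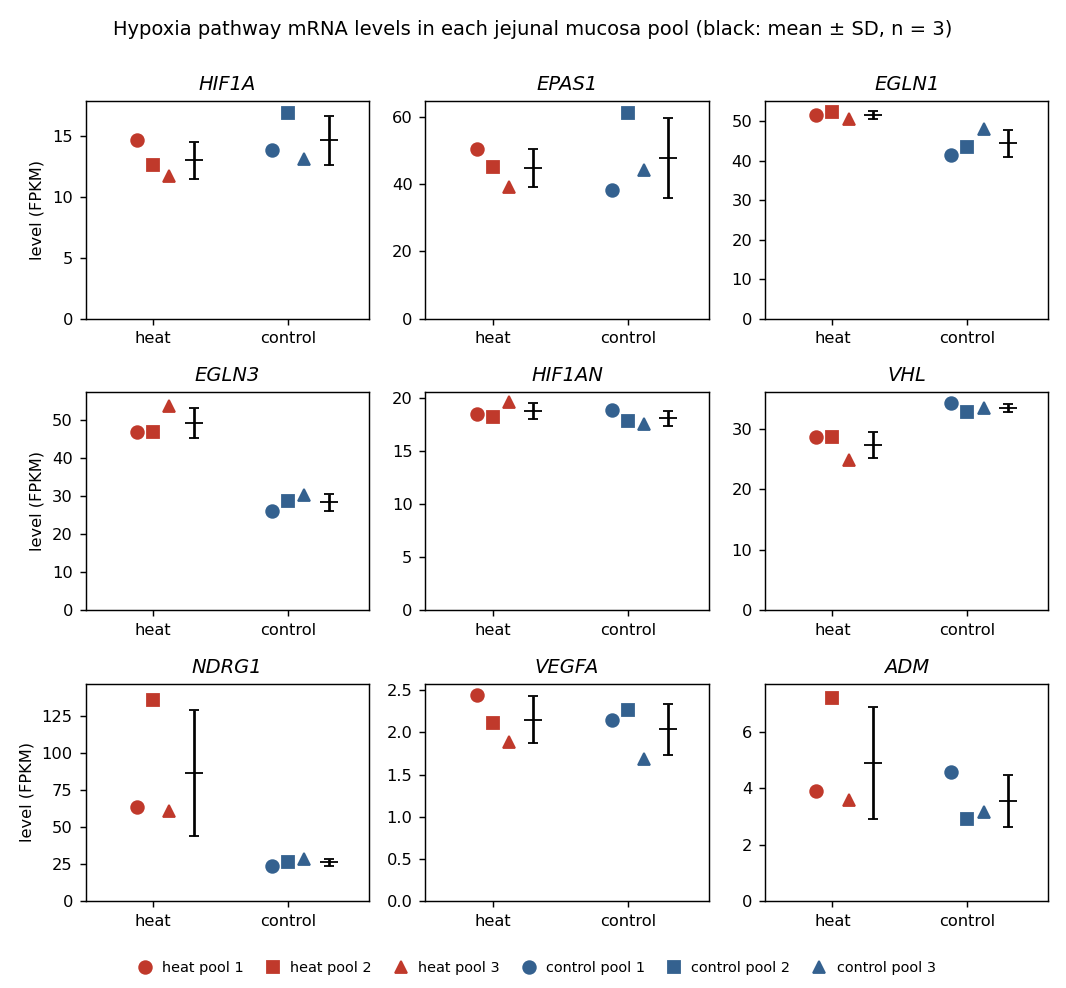
Level in FPKM (vertical axes, each from 0) of the 9 hypoxia pathway genes in each heat pool (red) and control pool (blue), with the mean ± SD of 3 pools in black. EGLN1, EGLN3 and NDRG1 lie higher in every heat pool than in any control pool, VHL lies lower, and the other 5 genes overlap.

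The oxygen-sensing hydroxylases differed from each other. EGLN3, a prolyl hydroxylase that is strongly raised by HIF in mammalian cells, was at 47.0, 47.0 and 53.9 FPKM in heat pools 1, 2 and 3, against 26.1, 28.7 and 30.3 FPKM in control pools 1, 2 and 3. The lowest heat pool was well above the highest control pool, and the spread within each group was small (SD 3.94 FPKM in heat pools and 2.15 FPKM in control pools). The log2 fold change was 0.86 with SE 0.13, which is 1.81-fold, and it stayed between 0.75 (without heat pool 3) and 0.93 (without heat pool 1) when each pool was left out in turn. EGLN3 was not highest in heat pool 2, where it was 0.78 above the control mean in log2 CPM, against 0.72 in heat pool 1 and 1.05 in heat pool 3.

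EGLN1, the main hydroxylase that sets HIF1A levels in oxygenated mammalian cells, was at 51.7, 52.5 and 50.7 FPKM in heat pools, against 41.6, 43.6 and 48.2 FPKM in control pools. The groups did not overlap, but control pool 3 came within a few FPKM of the heat pools. Its log2 fold change was 0.27 with SE 0.11 (edgeR adjusted p = 0.254), which is 1.21-fold. HIF1AN was at 18.6, 18.3 and 19.7 FPKM in heat pools and at 18.9, 17.9 and 17.6 FPKM in control pools, with overlap and a log2 fold change of 0.11 (SE 0.11).

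Because EGLN3 and EGLN1 are read in the same library, their ratio does not depend on how libraries are scaled. The ratio of EGLN3 to EGLN1 in FPKM was 0.910, 0.896 and 1.06 in heat pools, against 0.627, 0.657 and 0.630 in control pools. It averaged 0.956 ± 0.0928 in heat pools and 0.638 ± 0.0167 in control pools (SD, n = 3 each), and no heat pool reached down to a control pool. EGLN3 messenger RNA was therefore below EGLN1 in every control pool, and close to it or just above it in the heat pools.

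VHL, the part of the ubiquitin ligase that binds hydroxylated HIF, was at 28.6, 28.7 and 24.8 FPKM in heat pools, against 33.5 ± 0.696 FPKM in control pools (SD, n = 3), where the 3 values were 34.3, 32.9 and 33.5 FPKM. All heat pools lay below all control pools, as for 12.9% of all tested genes. The log2 fold change was -0.24 with SE 0.10 (edgeR adjusted p = 0.258), a factor of 0.847. It was between -0.27 and -0.20 without each pool in turn. VHL and EGLN3 thus differed in opposite directions, and the difference in VHL was the smaller. Neither was past adjustment in edgeR. Fold changes in these libraries depend on gene length (Spearman's rho between gene length and log2 fold change 0.233 across genes, which are not independent replicates). After removal of this trend VHL was at -0.19, EGLN1 at 0.24, EGLN3 at 0.82, NDRG1 at 1.80 and HIF1AN at 0.12. HIF1A was then at -0.21 (SE 0.12), EPAS1 at -0.11, ADM at 0.62 and VEGFA at 0.22.

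NDRG1 had the largest difference of the 9 genes. It encodes a cytoplasmic protein that is induced by low oxygen, nickel and other stresses in human cells and is used there as a marker of hypoxia. Its level was 64.0, 136 and 60.8 FPKM in heat pools 1, 2 and 3, against 24.0, 26.7 and 28.6 FPKM in control pools 1, 2 and 3. Every heat pool was above every control pool, and heat pool 2 was far above the other two heat pools. The CV was 48.9% in heat pools and 8.83% in control pools. The log2 fold change was 1.77 with SE 0.30, which is 3.42-fold and rank 27 of 13060 genes by log2 fold change, where EGLN3 had rank 252. Both genes were put forward from this contrast, so these ranks are a description and no support. Without heat pool 2 the log2 fold change was 1.31, and it was 1.98 without heat pool 1 and 1.95 without heat pool 3. Within a pool the ratio of NDRG1 to EGLN3 in FPKM was 1.36, 2.89 and 1.13 in heat pools, against 0.919, 0.931 and 0.943 in control pools, so these genes kept nearly the same ratio in the control pools and a different one in each heat pool.

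**Figure D2:**
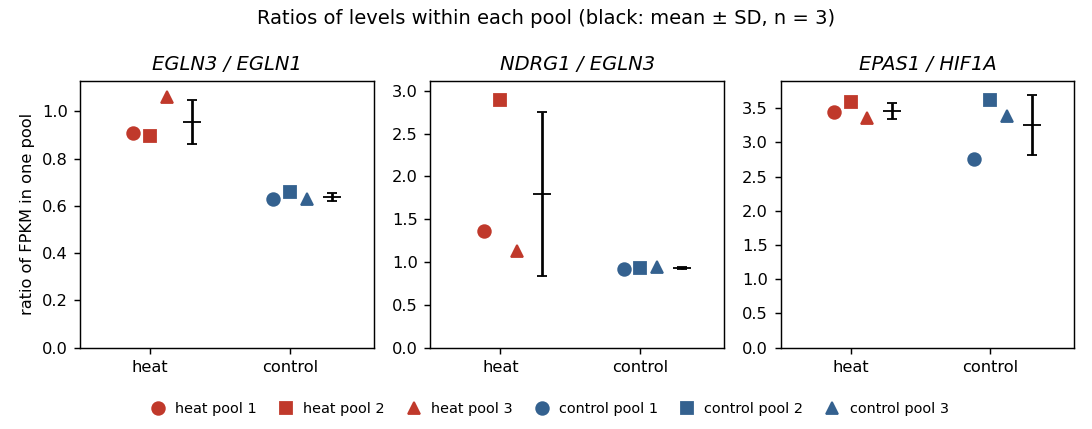
Ratio of FPKM values within each pool (vertical axes, from 0) for EGLN3 over EGLN1, NDRG1 over EGLN3 and EPAS1 over HIF1A, with heat pools in red, control pools in blue and mean ± SD of 3 pools in black. The EGLN3 to EGLN1 ratio is 0.896 to 1.06 in heat pools and 0.627 to 0.657 in control pools, while heat pool 2 alone has an NDRG1 to EGLN3 ratio of 2.89.

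The secreted HIF targets were low and did not separate the groups. VEGFA, the main growth factor of blood vessels, was at 2.44, 2.11 and 1.89 FPKM in heat pools and at 2.15, 2.26 and 1.69 FPKM in control pools. These levels rest on 25, 24 and 22 counts in heat pools and 27, 27 and 21 counts in control pools, which limits what could be detected, and the log2 fold change was 0.12 with SE 0.27. ADM, the vasodilator peptide adrenomedullin, was at 3.90, 7.18 and 3.59 FPKM in heat pools and at 4.59, 2.91 and 3.16 FPKM in control pools. Only heat pool 2 lay above the control range, with 98 counts against 48 and 50 in the other heat pools and 68, 42 and 46 in control pools. The log2 fold change of 0.51 (SE 0.34) became 0.14 without heat pool 2. Heat pool 2 was thus the highest pool for both NDRG1 and ADM, but not for VEGFA or EGLN3.

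Over the whole table, 4 of the 9 genes had pools that did not overlap between the groups, 3 higher and 1 lower in heat pools, where 24.5% of all tested genes had non-overlapping pools (11.6% higher and 12.9% lower). EGLN3 and NDRG1 were chosen from this contrast, and all 9 genes with earlier results of these data known, so nothing is read from that count.

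**Figure D3:**
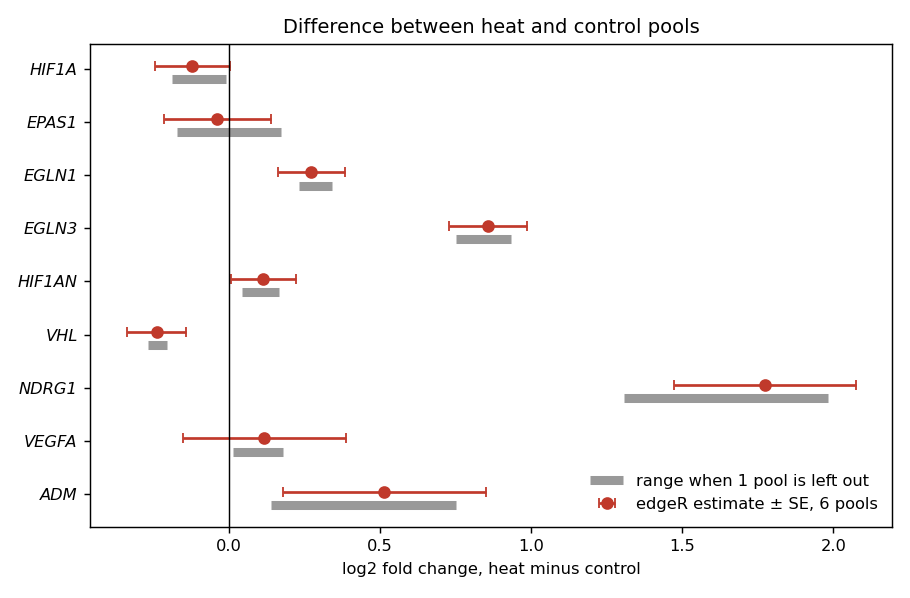
Log2 fold change, heat minus control (horizontal axis), of the 9 genes with edgeR's estimate ± SE from 6 pools (red) and the range of estimates when each pool is left out in turn (grey bars). NDRG1 lies at 1.77 and EGLN3 at 0.86, VHL lies at -0.24, and the EPAS1 range from -0.17 to 0.17 spans 0.

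The order of levels differed between the groups, with NDRG1 and EGLN3 placed higher and EPAS1 and VHL placed lower in heat pools. By mean FPKM, EPAS1 came before EGLN1 in control pools and after it in heat pools. In heat pools the order by mean FPKM was NDRG1 (86.9 ± 42.5), EGLN1 (51.6 ± 0.908), EGLN3 (49.3 ± 3.94), EPAS1 (44.9 ± 5.63), VHL (27.4 ± 2.20), HIF1AN (18.8 ± 0.756), HIF1A (12.97 ± 1.54), ADM (4.89 ± 1.99) and VEGFA (2.15 ± 0.277; SD, n = 3 pools). EGLN1, EGLN3 and EPAS1 overlapped their neighbours there, and the other neighbours did not overlap. In control pools the order was EPAS1 (47.8 ± 11.9), EGLN1 (44.5 ± 3.39), VHL (33.5 ± 0.696), EGLN3 (28.4 ± 2.15), NDRG1 (26.4 ± 2.33), HIF1AN (18.1 ± 0.707), HIF1A (14.6 ± 2.02), ADM (3.55 ± 0.906) and VEGFA (2.03 ± 0.302). EPAS1 overlapped EGLN1 there and was above it in control pool 2 only, so its first place rests on that pool. EGLN3 overlapped NDRG1 there, although EGLN3 was above NDRG1 in each of the 3 control pools. HIF1AN, HIF1A, ADM and VEGFA held the same last 4 places in both groups.

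The rest of the pathway was followed in 6 gene lists of 101 genes in all, of which 91 were in the table and 88 were tested. Without the 9 genes above, 79 were tested and by edgeR's quasi-likelihood test none was past an adjusted p of 0.05 (0.023% of all genes passed), 13 had an unadjusted p under 0.05 (16.5%, against 17.9% of all genes) and 4 passed in DESeq2 (5.25% of all genes with an adjusted p). Their median log2 fold change was 0.03, against -0.003 over all tested genes, and 9 had heat pools all above and 6 all below the control pools (11.6% and 12.9% of all genes).

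Besides HIF1A and EPAS1, the list of HIF subunits and cofactors held 6 tested genes, of which 1 had an unadjusted p under 0.05 (17.9% of all genes) and none passed after adjustment. Their log2 fold change was positive in 5 and negative in CITED4 (-0.22, SE 0.19), and the median was 0.31, or 0.25 after removal of the trend on gene length. CREBBP, an acetyltransferase that acts as a coactivator of HIF, was at 0.49 (SE 0.18, edgeR adjusted p = 0.218, DESeq2 adjusted p = 0.144). Its relative EP300 was at 0.37 (SE 0.16, edgeR adjusted p = 0.288, DESeq2 adjusted p = 0.251). Without heat pool 2 CREBBP was at 0.26 and EP300 at 0.21. With all pools and the trend on gene length removed, CREBBP was at 0.35 and EP300 at 0.22. ARNT, the constitutive partner subunit, was at 65.7 to 87.7 CPM in heat pools and 58.9 to 65.4 CPM in control pools. In FPKM its groups overlapped (26.7 to 38.1 in heat pools and 26.4 to 30.8 in control pools). The log2 fold change of ARNT was 0.25 (SE 0.13), or 0.12 without heat pool 2. CITED2, which competes with HIF for its coactivators and is itself a HIF target in mammals, rested on 11 to 20 counts in heat pools and 9 to 12 counts in control pools (0.82, SE 0.36, edgeR adjusted p = 0.285). HIF3A had too few counts to be tested.

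In the list of oxygen sensors and the VHL ligase, the 6 tested genes besides EGLN1, EGLN3, HIF1AN and VHL lay between -0.19 and 0.23 on the log2 fold change scale, and none had an unadjusted p under 0.05. RBX1 and CUL2, which with VHL form the ligase, were at -0.19 (SE 0.13) and -0.11 (SE 0.10), each with overlap between the groups in CPM. In FPKM CUL2 overlapped too, but RBX1 was lower in every heat pool (270 to 310 FPKM, against 323 to 364 FPKM in control pools). RBX1 has a short transcript and was at -0.05 after removal of the trend on gene length. SIAH1 and SIAH2, ubiquitin ligases that degrade EGLN3 in mammalian cells, were at 0.23 (SE 0.18) and 0.20 (SE 0.18). Without heat pool 2 SIAH1 was at -0.001 and SIAH2 at 0.30.

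Besides EGLN1, EGLN3, VEGFA, NDRG1 and ADM, the list of HIF targets outside glycolysis held 33 tested genes, 20 of them with a positive log2 fold change, and their median was 0.15. Of these, 5 were higher and 1 lower in heat pools at an unadjusted p under 0.05 (8.87% and 9.02% of all genes), and none passed after adjustment. INSIG2, a membrane protein of the endoplasmic reticulum that restrains sterol synthesis, was at 44.6, 43.5 and 39.0 FPKM in heat pools, against 35.4, 27.9 and 27.2 FPKM in control pools. It was higher in every heat pool, with a log2 fold change of 0.55 (SE 0.13, edgeR adjusted p = 0.119, DESeq2 adjusted p = 0.0122). P4HA2, a catalytic subunit of the prolyl hydroxylase that modifies collagen, was at 36.3, 68.3 and 25.8 FPKM in heat pools, against 20.5, 19.6 and 19.3 FPKM in control pools. Heat pool 2 was the highest here too, as for NDRG1, and the log2 fold change of 1.18 (SE 0.31, edgeR adjusted p = 0.133, DESeq2 adjusted p = 0.00462) was 0.70 without that pool.

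The mitophagy receptors BNIP3L and BNIP3 and the second collagen hydroxylase subunit P4HA1 were the other 3 higher genes. BNIP3L was at 0.34 (SE 0.12), BNIP3 at 0.33 (SE 0.12) and P4HA1 at 0.31 (SE 0.13), each with all heat pools above all control pools in CPM. In FPKM BNIP3 overlapped, with 31.5 FPKM in heat pool 3 and 32.2 FPKM in control pool 2. None of these 3 genes was past adjustment in edgeR or in DESeq2. P4HA1 was at 0.18 without heat pool 2. FAM162A, a mitochondrial protein that HIF1A raises in human cells, went the other way, with 23.7, 18.6 and 25.1 FPKM in heat pools, against 36.9, 30.9 and 37.3 FPKM in control pools. Its log2 fold change was -0.58 (SE 0.16, edgeR adjusted p = 0.143, DESeq2 adjusted p = 0.0546), or -0.45 without heat pool 2. Every heat pool was below every control pool. LOX and CA12 had too few counts to be tested.

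Of the 18 tested glycolytic HIF targets 12 had a negative log2 fold change and the median was -0.11. Without heat pool 1 the median was -0.03, with 9 genes positive and 9 negative. It was -0.09 without heat pool 2 and -0.27 without heat pool 3. At an unadjusted p under 0.05, 4 were lower and 1 higher in heat pools (9.02% and 8.87% of all genes), and none passed after adjustment in edgeR. PGAM1, phosphoglycerate mutase, was at 214, 223 and 215 FPKM in heat pools, against 324, 326 and 301 FPKM in control pools, a clear gap in every pool (log2 fold change -0.48, SE 0.12, edgeR adjusted p = 0.119, DESeq2 adjusted p = 0.00331). PFKL, a phosphofructokinase, was at -0.61 (SE 0.16, edgeR adjusted p = 0.133, DESeq2 adjusted p = 0.0445), TPI1, triosephosphate isomerase, at -0.41 (SE 0.15) and the glucose transporter SLC2A1 at -0.31 (SE 0.13). PDK3, a kinase that restrains the entry of pyruvate into the mitochondrion, was the higher one, at 0.42 (SE 0.14, edgeR adjusted p = 0.192, DESeq2 adjusted p = 0.132). TPI1 and SLC2A1 were not past adjustment in DESeq2 either. Without heat pool 2 PGAM1 was at -0.49, PFKL at -0.52, TPI1 at -0.32, SLC2A1 at -0.24 and PDK3 at 0.30. After removal of the trend on gene length the median of the glycolytic list was -0.04, and that of the 33 targets outside glycolysis was 0.12. The difference between these lists was not tested, and their division is not strict. PFKFB3 and PFKFB4 were placed outside glycolysis, while PDK1, PDK3 and carriers such as SLC2A1 were placed among the glycolytic targets.

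**Figure D4:**
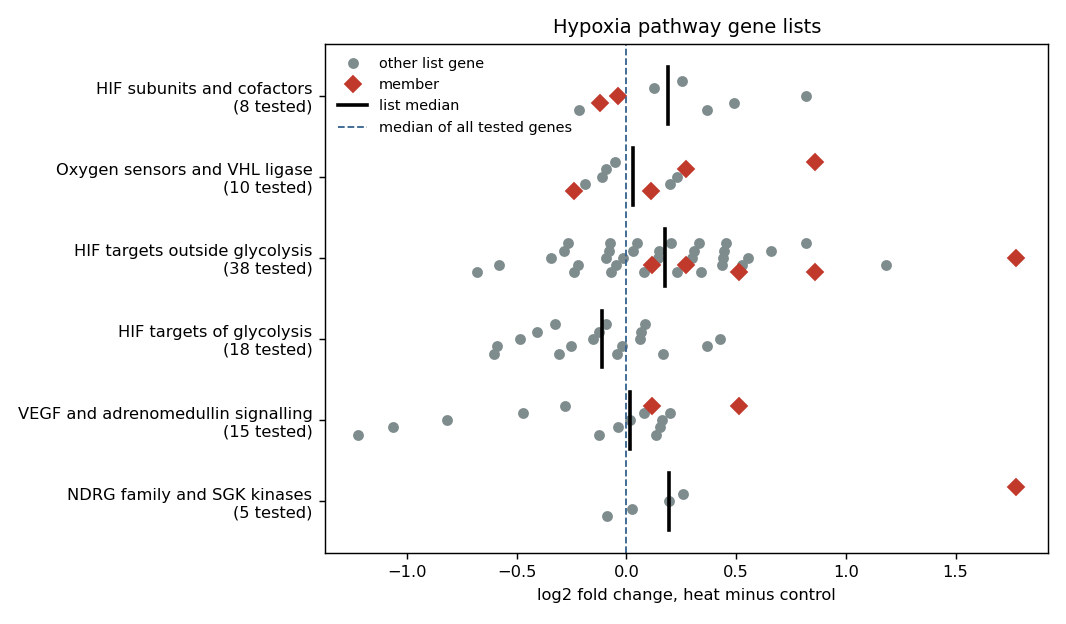
Log2 fold change, heat minus control (horizontal axis), of each tested gene of the 6 hypoxia pathway lists, with the 9 genes described above as red diamonds, other genes as grey circles, the list median as a black bar and the median of all tested genes as a dashed line. Medians, the 9 genes included, run from -0.11 for glycolytic targets to 0.20 for the NDRG family and SGK kinases, and NDRG1 at 1.77 is the highest value; a gene in several lists is drawn in each.

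In the list of VEGF and adrenomedullin signalling, which includes VEGFA and ADM, 1 of 15 tested genes had an unadjusted p under 0.05 (17.9% of all genes), and none passed after adjustment. The median was 0.01, and lay between -0.16 without heat pool 2 and 0.18 without control pool 2. The gene with the low p was PGF, a ligand of the VEGF receptor FLT1, at 0.700, 0.710 and 0.460 FPKM in heat pools, against 1.38, 1.49 and 1.70 FPKM in control pools (log2 fold change -1.22, SE 0.33, edgeR adjusted p = 0.139). It rested on only 8, 9 and 6 counts in heat pools and 19, 20 and 23 counts in control pools, and DESeq2 gave it no adjusted p. RAMP2, which builds the adrenomedullin receptor with CALCRL, was at -0.47 (SE 0.22), VEGFD, a lymphatic growth factor, at -0.82 (SE 0.42) and ADM2, a relative of adrenomedullin, at -1.06 (SE 0.63), each with overlap between the groups. ADM2 rested on 5, 4 and 10 counts in heat pools and 25, 5 and 16 counts in control pools. VEGFD was at -1.41 without heat pool 2.

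The SGK kinases, of which SGK1 phosphorylates NDRG1 in mammals, overlapped between the groups. SGK1 was at 89.7, 63.0 and 78.4 FPKM in heat pools and at 88.2, 93.9 and 73.2 FPKM in control pools, a log2 fold change of -0.09 (SE 0.16) that was 0.05 without heat pool 2. SGK3 was at 0.20 (SE 0.14) and SGK2 at 0.26 (SE 0.36), both with overlap, and without heat pool 2 they were at 0.30 and 0.16. NDRG4, the other family member analysed here, was at 1.22, 1.27 and 0.9 FPKM in heat pools and at 1.12, 1.32 and 1.23 FPKM in control pools (0.03, SE 0.24, and -0.04 without heat pool 2).

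The genes whose levels ran most like those of EGLN3 and NDRG1 were sought among all tested genes. Likeness was measured as Pearson's r of log2 CPM over the 6 pools, which share the difference between the groups and the library sizes, so it is a description. The genes most like EGLN3 were CAT, which encodes catalase (r = 0.994), KRT80, a keratin (0.993), KIF2A, a kinesin that takes down microtubules (0.993), SLC16A10, a carrier of aromatic amino acids and thyroid hormones (0.990), and ABCF3 (0.990). CAT was at 612, 617 and 699 CPM in heat pools, against 422, 467 and 483 CPM in control pools, and like EGLN3 was highest in heat pool 3. SLC16A10 was at 28.9, 31.0 and 35.2 CPM in heat pools, against 16.4, 19.1 and 21.1 CPM in control pools.

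The genes most like NDRG1 were PTMS, parathymosin (r = 0.997), FKBP4, a co-chaperone of HSP90 (0.997), TMOD4, a tropomodulin that caps actin (0.994), ACVR1, a receptor kinase for bone morphogenetic proteins (0.994), and PPFIBP2, a liprin (0.993). TMOD4 was very low, at 1.44, 2.55 and 1.40 CPM in heat pools and 0.574, 0.645 and 0.577 CPM in control pools, so its r carries large counting error. FKBP4 was at 282, 452 and 287 CPM in heat pools, against 167, 181 and 173 CPM in control pools, with heat pool 2 highest as for NDRG1. PPFIBP2 was at 82.0, 124 and 72.8 CPM in heat pools, against 38.5, 41.7 and 46.6 CPM in control pools. Among the 9 genes, the r with EGLN3 was 0.95 for EGLN1, -0.96 for VHL and 0.86 for NDRG1, whereas HIF1A had -0.52 and EPAS1 -0.07. HIF1AN had 0.67, ADM 0.41 and VEGFA 0.23. By r from the most positive down, EGLN1 had rank 91 and NDRG1 rank 485 among all tested genes. Many genes outside the pathway thus ran closer to EGLN3 than these did.

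**Figure D5:**
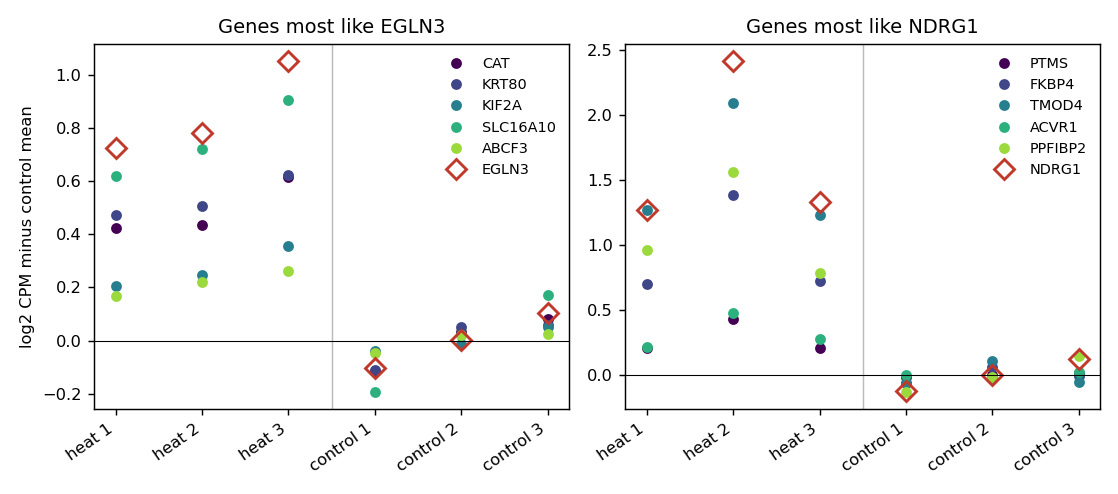
Log2 CPM minus the mean of the control pools (vertical axis) in each pool for EGLN3 and for NDRG1 (open red diamonds) and the 5 genes most like each (circles). EGLN3 and its nearest genes are highest in heat pool 3, and NDRG1 and its nearest genes in heat pool 2.

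Markers of other cell types were read beside these values. Fewer cells of a type and less RNA per cell cannot be told apart in such tissue samples. The summed level of 11 endothelial markers, cells in which EPAS1 is prominent, was 216 to 328 CPM in heat pools and 229 to 268 CPM in control pools, and that of 10 fibroblast markers was 1201 to 2292 CPM in heat pools and 1290 to 1847 CPM in control pools. Both sums were highest in heat pool 2, the pool with the highest NDRG1, ADM and P4HA2, but their single markers were mixed. In FPKM, CDH5, TEK, KDR, EGFL7 and CLDN5 were highest there, and PECAM1, TIE1, FLT1, ESAM, ERG and ROBO4 were not. Of the fibroblast markers, COL1A2, COL3A1, DCN, PDGFRA, FBN1 and POSTN were highest there, and COL1A1, LUM, PDGFRB and COL6A3 were not. The enterocyte sum was lowest of all 6 pools in heat pool 2, at 19590 CPM. The fatty acid binding protein FABP1 was at 5498 FPKM there, against 14050 and 13010 FPKM in heat pools 1 and 3 and 11530 to 19650 FPKM in control pools. VIL1, APOA1, APOA4 and KRT20 were also lowest there, while SI was highest there at 269 FPKM. The other enterocyte markers in heat pool 2 lay inside the range of the remaining pools, so these markers did not move together. Smooth muscle markers summed to 931 to 1863 CPM in heat pools and 970 to 1592 CPM in control pools over 10 genes, and leukocyte markers to 10610 to 11480 CPM in heat pools and 8814 to 13050 CPM in control pools over 10 genes. Erythroid markers summed to 14.4 to 19.6 CPM over 7 genes in heat pools and 23.7 to 25.2 CPM in control pools. Among the globins HBBA was lower in every heat pool (17.6 to 22.0 FPKM, against 37.3 to 46.2 FPKM in control pools), while HBA1 (25.6 to 44.8 FPKM in heat pools and 37.5 to 46.9 FPKM in control pools) and HBM (6.28 to 10.7 FPKM in heat pools and 5.96 to 9.22 FPKM in control pools) overlapped. The part of these cell types in the differences of EGLN3, NDRG1 and VHL was not tested. The difference of NDRG1 was 1.31 and that of EGLN3 0.90 on the log2 scale without heat pool 2. Leaving out that pool does not address the cell types in the other pools.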

How the data were processed

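The 6 libraries were grouped and numbered by their titles. Per the labels' protocols, messenger RNA was enriched by poly(A) selection or by removing ribosomal RNA. Per the submitters' processing notes, the build was GRCg6a and the tools were DESeq2, HTSeq 0.6.1, HISAT2 2.0.1 and cutadapt 1.9.1, with no order or settings given. The authors deposited 1 table with an estimated count per gene and library and with FPKM, per the file headers. Between 13.05% and 13.65% of the estimated counts are not whole within 0.001, and the tool that made them and its strand setting are not given in the sources used here.

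Counts were rounded and tested with edgeR 4.0.16 (glmQLFit, glmQLFTest) in R 4.3.3 after filterByExpr (minimum count 10, total 15) and TMM scaling, two-sided, with Benjamini-Hochberg adjustment over 13060 genes and a threshold of 0.05. SE is the absolute log2 fold change over the square root of F. Overlap of pools was judged on CPM. DESeq2 1.42.0, limma-trend (limma 3.58.1) on log2(FPKM + 1) and on log2(FPKM + 0.1), other scalings, no filter, offsets that remove a loess trend (span 0.5) on the gene length implied by count and FPKM, a replicate block and leaving out each pool were the alternatives. The tests were checked on simulated counts.

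The 9 genes and the gene lists were chosen with earlier results of these data known. Named genes are the 9, the 4 others with the smallest p of each list, the 5 most like EGLN3 and NDRG1, and genes needed to spell out a count of 5 or fewer. The gene read as SLC2A3 carries the symbol SLC2A14 in the deposited data. It was found as a synonym through a gene table of another build (GRCg7b, 93% of identifiers matched), so no coordinates are given. Replicates differed beyond sampling noise (chi-square over degrees of freedom 22.2 to 65.0 for pairs in a group). Depth was 11513427 to 13805395 estimated counts, so counts near 20, as for VEGFA, carry large counting error.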

Additional observations from a re-analysis of the deposited data

How the results depend on the processing

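Over all genes edgeR called 3 (0.023%) and DESeq2 645 (352 higher, 293 lower), which is 5.25% of those with an adjusted p. Limma-trend on log2(FPKM + 0.1) called 1, the replicate block 20 (8 higher, 12 lower), and leaving out 1 pool gave 0 to 7. Of the 9 hypoxia pathway genes 0 were called, 2 by DESeq2 (EGLN3 and NDRG1, both chosen from this contrast, so nothing is read from it), and 0 to 1 without 1 pool (NDRG1 without heat pool 2); over all the pathway lists 0 were called, 6 by DESeq2 (4 higher, 2 lower) and 0 to 1 without 1 pool. The other 7 alternatives that kept all pools called 0 of either. All list counts in this paragraph include the 9 genes, so they differ from those given above without them. In the main fit 17.9% of all genes had an unadjusted p under 0.05 in edgeR. That share is not given here for the alternative fits, so nothing is read from the list counts under them. At an unadjusted p under 0.05, the list of HIF subunits and cofactors had 1 gene, 2 by DESeq2, with its size factors, with the length trend removed or with the replicate block, and 0 to 4 without 1 pool; oxygen sensors and the VHL ligase had 3, 1 with the length trend removed, 1 with the block and 1 to 2 without 1 pool; HIF targets outside glycolysis had 9 and 6 to 13 without 1 pool; glycolytic targets had 5 and 2 to 8 without 1 pool; VEGF and adrenomedullin signalling had 1, 2 by DESeq2 or by limma-trend at either pseudocount and 1 to 2 without 1 pool. The cause of these shifts was not tested.

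All 9 genes but EPAS1 kept their sign in all 14 alternatives. These alternatives reuse the same pools, and EGLN3 and NDRG1 were chosen from this contrast, so a kept sign is no support. Of 378 values of the 27 other genes named from the pathway lists, 371 kept their direction. Without heat pool 2 SIAH1 turned to -0.0013 (range -0.0013 to 0.345 without 1 pool) and SGK1 to 0.0451 (range -0.181 to 0.0451). NDRG4 turned to -0.0653 and -0.116 by limma-trend on log2(FPKM + 1) and log2(FPKM + 0.1), and ran from -0.0465 to 0.163 without 1 pool. The order of the 9 levels in control pools was the same by CPM per kilobase. Deviations of same-numbered pools correlated at 0.257, 0.0891 and 0.0169 for numbers 1, 2 and 3. Heat pool 1 correlated best with control pool 1, and heat pool 2 with control pool 3 at 0.185. Heat pool 3 was hardly closer to control pool 3 (0.0169) than to control pool 1 (0.0129). Whether same-numbered pools share more than a number was not tested. The motif and protein comparisons planned for these genes were not run.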
